A study of Mus musculus with 6 samples.

Results

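The 10 genes described here encode bone morphogenetic protein (BMP) ligands, their receptors and genes that the pathway switches on in turn: Bmp2, Bmp4, Bmp5, Bmp7, Bmp10, Bmpr1a, Bmpr2, Smad6, Id1 and Id2. They were taken as all probe sets whose platform annotation names 1 gene symbol that is one of these, which gave 23 probe sets of 45037 in the table, covering all 10 genes of 18193 named by a single-gene probe set. The rule itself uses no measured value. Hearts of C57BL/6 mouse embryos were taken at E12.5, and their RNA was hybridised to 6 Affymetrix 3' expression arrays. The labels give 3 arrays to Rhau KO hearts and 3 to wildtype hearts. Each group comprised 3 dissected hearts, per the series text. Whether each array is 1 heart is unsettled, given the sex-linked signals described below. The deleted part of Rhau and the driver of its deletion are not stated in the sources used here. Rhau, now called Dhx36, encodes a helicase for G-quadruplexes, which are folds that guanine-rich nucleic acids form from stacked G tetrads. Nothing else in the labels separates the groups.

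BMP ligands are secreted as dimers that bring type I and type II receptor kinases together. The type II receptor activates the type I receptor, which phosphorylates Smad1, Smad5 or Smad9, and these enter the nucleus with Smad4 and switch on target genes. Among the targets are the Id genes and the inhibitory Smad genes, whose products damp the signal. In the embryonic heart, BMP signalling is known for its part in forming the outflow tract and the atrioventricular cushions, and BMP10 for sustaining growth of the trabeculae, the muscular ridges that line the ventricles.

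The targeted gene went against the labels. All 3 Dhx36 probe sets were higher in the arrays labelled Rhau KO, with the brightest at 10.10, 10.48 and 10.23 there and at 8.99, 8.88 and 8.71 in the arrays labelled wildtype (log2 signal; adjusted p = 3.35e-05, limma). A probe set outside the deleted part would check nothing. Groups are therefore named by their labels, and all directions follow those labels. Sex-linked signal also differed between arrays: replicates 1 and 2 labelled Rhau KO and replicate 3 labelled wildtype carried both Xist (12.37 to 13.47) and Y-linked signal (mean of 3 genes, 8.43 to 9.53). Replicate 3 labelled Rhau KO carried Y-linked signal at 9.80 with Xist at 5.10, and replicates 1 and 2 labelled wildtype carried Xist at 13.85 and 13.82 with Y-linked signal at 1.80 and 2.73. A fit with Y-linked signal as a further term kept the call of 2 of the 9 called member probe sets and of 5 of the 16 called pathway genes named below, and its value is given beside each of these. Calls numbered 4 of 9 and 7 of 16 in the 3 arrays that carry both signals, and 4 of 9 and 10 of 16 without them. All 10 cardiomyocyte markers lay above the filter, the lowest being Ryr2 at a mean of 11.74 under the Rhau KO label and 12.00 under the wildtype label. The filter leaves out only the lowest 40% of probe sets, so passing it does not by itself check the tissue label. Each array had the same trimmed mean linear signal of 500, and array medians lay between 6.68 and 6.80. Precision is limited by how few arrays there are.

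Most of the called changes were decreases under the Rhau KO label: Bmp4, the type I receptor gene Bmpr1a and the inhibitory Smad gene Smad6 fell, while Bmp2 rose. Bmp7 fell on 2 of 3 probe sets and Id2 rose on 1 of 3, in both cases without a call on the brightest. Of 23 probe sets, 22 passed the filter on low signal, 7 were called lower, 2 were called higher and 13 had no call at an adjusted p of 0.05 (limma, two-sided, adjusted over all 27022 probe sets tested). Over all probe sets tested, 6.88% of probe sets were called lower, 6.75% higher and 13.6% either way. Among the members 31.8% were called lower and 9.09% higher, so the share called higher was near that of the table. Tested member probe sets had a median SE of 0.090, against 0.125 over the table. The shares thus compare sets measured with unequal precision, and the share called among probe sets of like precision was not tested. After median centring the table held 1007 probe sets called higher and 2528 called lower, against 1824 and 1858 as deposited. Groups did not overlap for 10 of the 22 member probe sets (45.5%), against 33.9% of the table. Probe sets of 1 gene share a transcript, so these counts are not counts of independent events. Counting only the brightest probe set of each gene, 3 of 10 were lower (Bmp4, Bmpr1a and Smad6) and 1 higher (Bmp2), against 9.75% and 6.77% of all 12416 genes so represented. The median difference was -0.06 over the 22 probe sets and 0.04 over the table. In RNA of whole hearts, fewer cells of a type and less RNA per cell cannot be told apart.

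**Figure D1:**
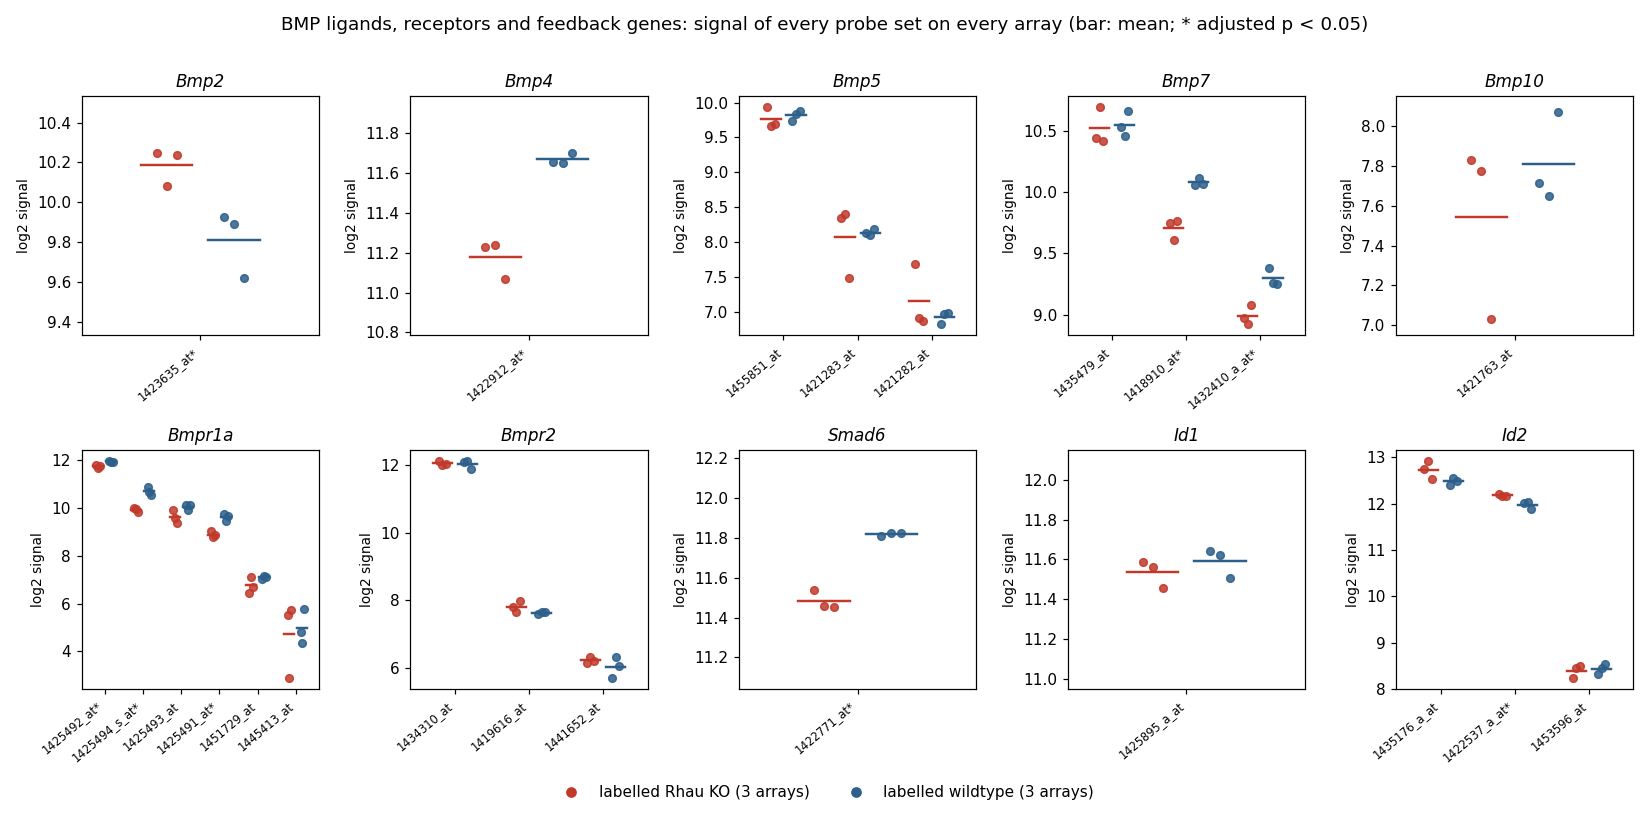
Log2 signal of all 23 member probe sets (x axis, 1 panel per gene, each with its own y scale) on the 3 arrays labelled Rhau KO (red, left) and the 3 labelled wildtype (blue, right), with bars at the group means and an asterisk on probe sets with adjusted p under 0.05. Bmp4 and Smad6 sit lower on all 3 arrays labelled Rhau KO, Bmp2 higher, and Id1 overlaps.

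Among the ligands, Bmp4 and Bmp2 changed in opposite directions. Bmp4, which is made in the outflow tract and pharyngeal mesoderm and is needed to septate the outflow tract, had log2 signals of 11.23, 11.24 and 11.07 in the arrays labelled Rhau KO, against 11.65, 11.65 and 11.70 in the arrays labelled wildtype. The groups did not overlap, and the wildtype-labelled arrays lay within a narrow band. The difference was -0.49 (SE 0.060, 95% interval -0.62 to -0.36), a 1.40-fold lower level with adjusted p = 6.55e-04. The call held under all 19 alternatives, with differences between -0.58 and -0.43, and with the Y-linked term the difference was -0.52 (adjusted p = 0.0340).

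Bmp2, the ligand of the atrioventricular canal that drives cushion formation, had log2 signals of 10.25, 10.08 and 10.24 in the arrays labelled Rhau KO, against 9.92, 9.89 and 9.62 in those labelled wildtype. Every array labelled Rhau KO lay above every array labelled wildtype, and replicate 3 labelled wildtype was the lowest. The difference was 0.38 (SE 0.092, 95% interval 0.17 to 0.58), a 1.30-fold higher level with adjusted p = 0.0226. It stayed above 0 under all 19 alternatives and kept its call in 13. The call was lost without replicate 1 or 3 labelled Rhau KO (0.35 each, adjusted p = 0.0686 and 0.0659), without replicate 3 labelled wildtype (0.28, adjusted p = 0.0656), after median centring (0.31, adjusted p = 0.0728), with eBayes without trend (adjusted p = 0.0906) and without the 3 arrays that carry both sex-linked signals (0.33, adjusted p = 0.102). With Y-linked signal as a covariate the difference was 0.62 (adjusted p = 0.0301). Taken within each array, the log2 signal of Bmp2 minus that of Bmp4 was -0.98, -1.15 and -0.83 under the Rhau KO label and -1.73, -1.76 and -2.08 under the wildtype label. The levels of different probe sets are not comparable, but the change in this quantity, 0.87, is. The groups did not overlap (exact permutation test, two-sided, p = 0.1, the smallest that 3 against 3 allows, and adjusted p = 0.14 over 7 such contrasts). That outcome was fixed in advance, because each gene alone already separated the groups, in opposite directions. It therefore adds no support to either call.

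Bmp7, a ligand that pairs with BMP2 or BMP4 in heterodimers and overlaps in function with BMP5 in the early heart, gave different answers on its 3 probe sets. The probe set 1418910_at was at 9.74, 9.61 and 9.77 under the Rhau KO label and at 10.06, 10.11 and 10.07 under the wildtype label. It fell by 0.37 (SE 0.071, adjusted p = 0.00695) with no overlap, and 1432410_a_at fell by 0.31 (SE 0.086, adjusted p = 0.0387), at 8.99 ± 0.08 against 9.30 ± 0.07 (mean ± SD, n = 3 each). The brightest probe set, 1435479_at, did not pass: its signals were 10.44, 10.69 and 10.42 under the Rhau KO label and 10.53, 10.45 and 10.66 under the wildtype label, with a difference of -0.03 (95% interval -0.22 to 0.16, adjusted p = 0.858). Within arrays, 1418910_at minus 1435479_at changed by -0.34 without overlap (exact permutation p = 0.1, adjusted p = 0.14), and 1432410_a_at minus 1435479_at by -0.28 with overlap (exact permutation p = 0.2). Both contrasts set a called probe set against one without a call. They therefore cannot show that the probe sets truly changed unequally. The call for 1432410_a_at was lost in 5 of 6 fits that left out an array, with differences of -0.27 without replicate 1 labelled wildtype or replicate 2 labelled Rhau KO, -0.30 without replicate 1 labelled Rhau KO and -0.33 without replicate 2 or 3 labelled wildtype. The call for 1418910_at held in all 6 such fits and was lost when Y-linked signal entered the fit (-0.36, adjusted p = 0.149), in the 3 arrays that carry both sex-linked signals (-0.39) and without those arrays (-0.32). With the Y-linked term 1432410_a_at stood at -0.25 (adjusted p = 0.403).

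Bmp5, a ligand of the same subgroup as Bmp7, was not called on any of 3 probe sets. The brightest, 1455851_at, had signals of 9.93, 9.66 and 9.69 in the arrays labelled Rhau KO and 9.74, 9.83 and 9.88 in the arrays labelled wildtype, so the groups overlapped. Its difference was -0.05 (95% interval -0.25 to 0.14), and those of 1421283_at and 1421282_at were -0.06 and 0.23. Single arrays stood apart on these dimmer probe sets: replicate 3 labelled Rhau KO was at 7.49 on 1421283_at, where the other arrays lay between 8.10 and 8.40, and replicate 1 labelled Rhau KO was at 7.68 on 1421282_at, where the others lay between 6.81 and 6.98. Bmp10, a ligand made by trabecular and atrial myocytes, had signals of 7.83, 7.77 and 7.03 under the Rhau KO label and 7.71, 7.65 and 8.07 under the wildtype label. Its groups overlapped, with replicate 3 labelled Rhau KO the lowest and replicate 3 labelled wildtype the highest. The difference was -0.26 (SE 0.22, 95% interval -0.74 to 0.21, adjusted p = 0.462), and it was -0.0078 without replicate 3 labelled Rhau KO. At this precision a change of Bmp10 by as much as the change of Bmp4 was not resolved.

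**Figure D2:**
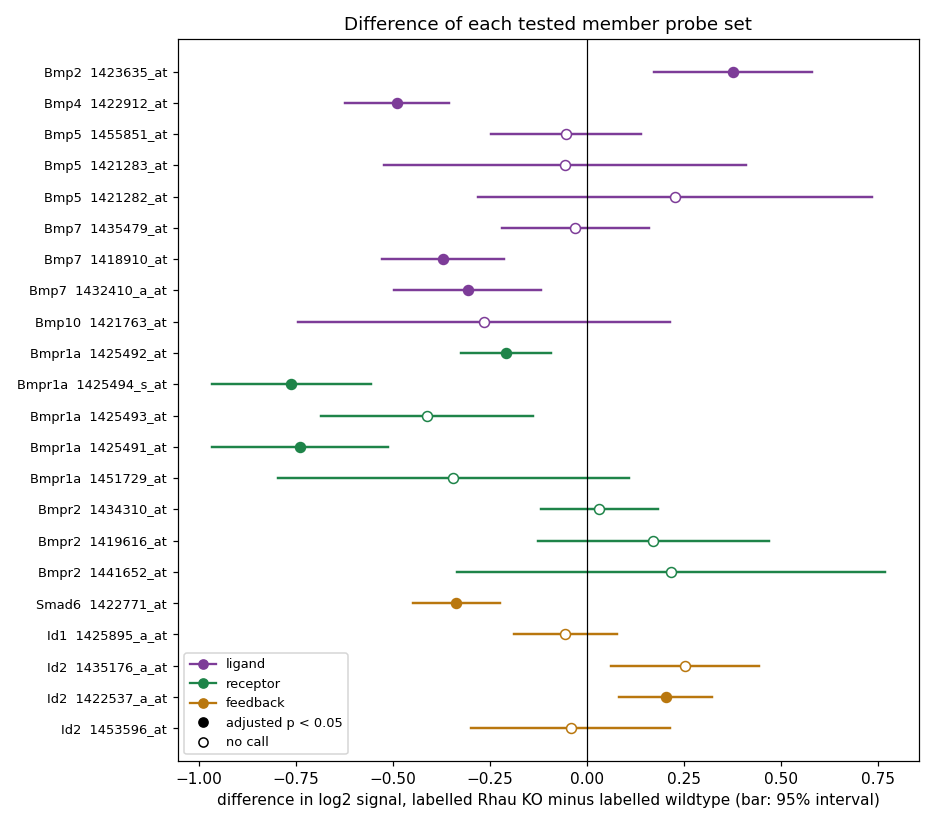
Difference in log2 signal, labelled Rhau KO minus labelled wildtype, of the 22 tested member probe sets (rows), with 95% intervals from limma; filled points have adjusted p under 0.05, and colours give the role. All 5 tested Bmpr1a probe sets lie below 0, with differences from -0.76 to -0.21, while Bmp2 lies at 0.38.

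Among the receptors, Bmpr1a fell and Bmpr2 was not called. Bmpr1a encodes ALK3, a type I receptor kinase that heart muscle and endocardial cushions need for normal development. Its brightest probe set, 1425492_at, had log2 signals of 11.77, 11.66 and 11.77 under the Rhau KO label, against 11.96, 11.94 and 11.92 under the wildtype label, and differed by -0.21 (SE 0.053, adjusted p = 0.0257). The groups did not overlap on this probe set, although the change was small. Larger changes were seen on 1425494_s_at, at 10.004, 9.94 and 9.83 under the Rhau KO label and 10.88, 10.66 and 10.52 under the wildtype label, a difference of -0.76 (SE 0.093), 1.70-fold lower with adjusted p = 6.24e-04. The suffix of that probe set marks it as one that may match more than 1 transcript. The probe set 1425491_at, at 9.03, 8.77 and 8.85 against 9.76, 9.46 and 9.64, differed by -0.74 (SE 0.10), 1.67-fold lower with adjusted p = 0.00123. The groups were apart on all 3 of these probe sets, with the wildtype label on the higher side.

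The remaining Bmpr1a probe sets pointed the same way without a call. The difference of 1425493_at was -0.41 (SE 0.12, adjusted p = 0.0503), with overlapping groups, and it was called without replicate 1 labelled Rhau KO (-0.56, adjusted p = 0.00883). That of 1451729_at was -0.34 (SE 0.20, adjusted p = 0.302). The sixth, 1445413_at, lay below the filter at 5.50, 2.88 and 5.74 under the Rhau KO label and 4.83, 4.35 and 5.77 under the wildtype label, and was not tested. The other 5 probe sets were designed from the same sequence record, so they are repeat measures of 1 gene. Their differences were unequal as measured. Within arrays, 1425491_at minus 1425492_at changed by -0.53 and 1425494_s_at minus 1425492_at by -0.55, both without overlap (exact permutation p = 0.1 each, adjusted p = 0.14). These contrasts set the probe sets of largest difference against that of smallest difference among those tested. They therefore cannot show that the probe sets truly changed unequally. The call for 1425492_at was lost without replicate 2 labelled Rhau KO (-0.17) and without replicates 1, 2 and 3 labelled wildtype in turn (-0.20, -0.21 and -0.22). Calls for the other called pair held whichever array was left out. With Y-linked signal as a covariate the 3 called probe sets stood at -0.18, -0.52 and -0.72 with adjusted p = 0.324, 0.0558 and 0.0626.

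Bmpr2, the type II receptor gene best known for its part in pulmonary arterial hypertension, had signals of 12.12, 12.01 and 12.04 on its brightest probe set under the Rhau KO label and 12.09, 12.11 and 11.88 under the wildtype label. The groups overlapped, and the difference of 0.03 (95% interval -0.12 to 0.18, adjusted p = 0.807) was -0.038 after median centring. Its dimmer probe sets differed by 0.17 and 0.22, with adjusted p = 0.444 and 0.614. On 1419616_at the groups did not overlap, at 7.80, 7.66 and 7.98 against 7.61, 7.66 and 7.66, but the lowest array labelled Rhau KO and the highest labelled wildtype were almost level.

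Of the genes that the pathway induces, Smad6 fell, Id1 was not called, and Id2 rose on 1 of 3 probe sets. Smad6 encodes an inhibitory Smad that binds type I BMP receptors and blocks Smad1 activation, and in the heart it is known from the cushions and outflow tract. Its signals were 11.54, 11.46 and 11.46 in the arrays labelled Rhau KO, against 11.81, 11.83 and 11.83 in the arrays labelled wildtype. The wildtype-labelled arrays were nearly level (SD 0.0081), and the groups were clearly apart. The difference was -0.34 (SE 0.050, 95% interval -0.45 to -0.23), 1.26-fold lower with adjusted p = 0.00190. It stayed between -0.41 and -0.32 under 19 alternatives and was called in 17, the exceptions being the fit that took Y-linked signal as covariate (-0.34, adjusted p = 0.0772) and a fit to the 3 arrays that carry both sex-linked signals (-0.33, adjusted p = 0.119).

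Id1 and Id2 encode proteins that bind and inactivate basic helix-loop-helix transcription factors. Id1, the most widely used readout of BMP signalling, had signals of 11.59, 11.56 and 11.46 under the Rhau KO label and 11.64, 11.62 and 11.51 under the wildtype label. The groups overlapped, with replicate 3 the lowest array under either label. The difference was -0.06 (SE 0.060, 95% interval -0.19 to 0.08, adjusted p = 0.583), and it was 0.056 with Y-linked signal as a covariate. Id2 had signals of 12.21, 12.17 and 12.17 on 1422537_a_at under the Rhau KO label and 12.02, 12.03 and 11.89 under the wildtype label. It rose there by 0.20 (SE 0.054, adjusted p = 0.0319) without overlap. The brightest Id2 probe set, 1435176_a_at, differed by 0.25 (SE 0.086, adjusted p = 0.0805), at 12.75, 12.93 and 12.53 against 12.41, 12.55 and 12.48, where replicate 3 labelled Rhau KO fell among the wildtype-labelled arrays. Without that array its difference was 0.35 and called (adjusted p = 0.0116). The third probe set, 1453596_at, differed by -0.04 (adjusted p = 0.850).

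The rise of Id2 on 1422537_a_at was small and not firm. Of the 6 fits that left out an array only that without replicate 2 labelled Rhau KO kept the call; the others gave 0.19 and 0.21 without replicates 1 and 3 labelled Rhau KO and 0.22, 0.23 and 0.16 without replicates 1, 2 and 3 labelled wildtype. After median centring it stood at 0.13 (adjusted p = 0.224), and with the Y-linked term at 0.31 (adjusted p = 0.0783). Within arrays, the brightest Id2 probe set minus Id1 was 1.16, 1.36 and 1.08 under the Rhau KO label and 0.77, 0.93 and 0.97 under the wildtype label, a change of 0.31 without overlap (exact permutation p = 0.1, adjusted p = 0.14). The change of 1422537_a_at minus 1453596_at was 0.24, with overlap (exact permutation p = 0.2). An exact p of 0.1 is the smallest that 3 against 3 allows, so neither contrast adds support to a rise of Id2.

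**Figure D3:**
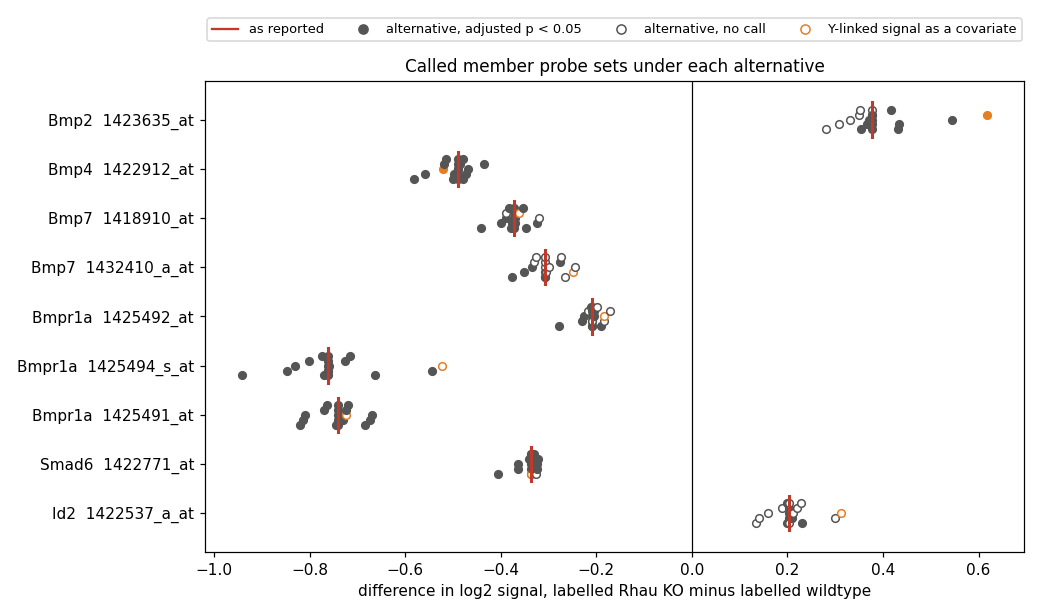
Difference in log2 signal (x axis, labelled Rhau KO minus labelled wildtype) of the 9 called member probe sets under each alternative processing (points, filled where adjusted p was under 0.05), with Y-linked signal as a covariate in orange and the reported value as a red bar. No point crosses 0, and Bmp4 is filled throughout, whereas most points of Id2 and of Bmp7 1432410_a_at are open.

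Promoter windows of the changed members are shown because Dhx36 acts on G-quadruplexes. Each runs from 250 bases before to 50 bases after a RefSeq transcript start (build GRCm38.p6), and 7 of the 10 members matched an entry, those without one being Bmp2, Bmp7 and Id1. The sequences are 5' to 3' on the gene's strand, and capitals mark the G-quadruplex pattern, 4 runs of at least 3 G separated by 1 to 7 bases, searched on both strands, with overlapping matches joined (on the other strand it reads as runs of C).
Bmp4, chr14:46390620-46390919, minus strand: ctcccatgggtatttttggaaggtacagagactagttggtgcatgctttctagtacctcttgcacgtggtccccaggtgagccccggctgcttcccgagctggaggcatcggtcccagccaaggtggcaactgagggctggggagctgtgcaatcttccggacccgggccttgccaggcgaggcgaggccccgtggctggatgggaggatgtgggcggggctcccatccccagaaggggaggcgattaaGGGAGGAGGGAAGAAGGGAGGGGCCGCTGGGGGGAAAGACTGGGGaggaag
Bmpr1a, chr14:34502497-34502796, minus strand: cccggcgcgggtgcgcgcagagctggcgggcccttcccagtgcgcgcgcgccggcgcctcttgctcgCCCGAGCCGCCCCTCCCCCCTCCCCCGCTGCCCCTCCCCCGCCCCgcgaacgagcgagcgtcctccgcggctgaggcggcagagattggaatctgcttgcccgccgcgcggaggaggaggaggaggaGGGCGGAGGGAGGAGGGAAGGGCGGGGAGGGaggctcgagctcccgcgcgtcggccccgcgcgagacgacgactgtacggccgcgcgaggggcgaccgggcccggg
Smad6, chr9:64022010-64022309, minus strand: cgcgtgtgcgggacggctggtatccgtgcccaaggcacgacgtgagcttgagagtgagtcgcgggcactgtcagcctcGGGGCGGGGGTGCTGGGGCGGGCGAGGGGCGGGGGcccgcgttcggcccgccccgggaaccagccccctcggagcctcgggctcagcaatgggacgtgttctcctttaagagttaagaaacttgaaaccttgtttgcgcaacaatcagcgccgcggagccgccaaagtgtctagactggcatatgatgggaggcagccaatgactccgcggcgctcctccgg
Id2, chr12:25096043-25096342, minus strand: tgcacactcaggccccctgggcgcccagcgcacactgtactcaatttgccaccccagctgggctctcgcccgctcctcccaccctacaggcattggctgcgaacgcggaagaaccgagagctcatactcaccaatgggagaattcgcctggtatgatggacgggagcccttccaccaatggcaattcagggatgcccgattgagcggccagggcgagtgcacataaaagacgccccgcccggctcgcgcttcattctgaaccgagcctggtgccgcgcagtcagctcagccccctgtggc
In the Bmp4 window the pattern filled 45 bases from the base before the start to base 44 after it. In the Bmpr1a window it filled 45 bases of C runs and 31 bases of G runs, and in the Smad6 window 35 bases that began at base -172 from the start. The Id2 window held none. Of the 7 member windows 5 held the pattern, among them those of Bmp10 and Bmpr2, which had no call, and 18.6% of all 32851 windows held it. The Bmpr1a window was 79.3% G or C, those of Smad6, Bmp4 and Id2 were 66.3%, 64% and 63.3%, and the median window was 52.7%, so base composition differed too. The Smad1 and Smad5 site GGCGCC stood once each in the Bmpr1a, Bmpr2 and Id2 windows and in 11.9% of all windows. The Smad4 site GTCT stood in the windows of 6 members (all but Bmpr2) and in 88.0% of all windows. The pair of them in this order, 5 bases apart, was in no member window and in 0.0731% of all windows. These are matches of letters in DNA, not measured binding.

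Other genes of the pathway, each represented by its brightest probe set, moved in both directions. Over all 12416 genes so represented, 6.77% were called higher, 9.75% lower and 16.5% either way. A list with 1 call among 10 genes is thus near the share of the table. Among the called genes named below, the brightest probe sets of Hjv and Twsg1 (suffix s_at) and of Tbx3 and Tob2 (suffix x_at) may match more than 1 transcript. Among 10 tested receptors and co-receptors outside the members, 3 rose, 1 fell and 6 had no call, with a median of 0.21 (0.01 over all 12416 genes). The type II activin receptor genes, whose products also bind BMPs, were among those that rose. Acvr2b rose by 0.47 (SE 0.11, adjusted p = 0.0185), at 9.15, 8.87 and 8.91 under the Rhau KO label and 8.38, 8.60 and 8.54 under the wildtype label. Acvr2a rose by 0.23 (SE 0.062, adjusted p = 0.0355). Tgfbr3, a co-receptor that binds BMP2 and TGF-beta, rose by 0.60 (SE 0.084, adjusted p = 0.00137), with 11.29, 11.17 and 11.22 against 10.77, 10.43 and 10.70. Hjv, a BMP co-receptor of striated muscle and liver known for its part in iron balance, fell 3.18-fold, at 8.44, 7.88 and 7.90 under the Rhau KO label and 9.89, 9.69 and 9.64 under the wildtype label. The second Hjv probe set differed by -1.67 as well (adjusted p = 0.00332). Of Acvr2b and Acvr2a, the next brightest probe sets differed by 0.28 and 0.14 without a call. The Acvr2b call was lost without replicate 1 labelled Rhau KO (0.38) and without replicate 1 labelled wildtype (0.41), and the Acvr2a call in all 6 such fits (0.20 to 0.24). With the Y-linked term Hjv kept its call (-1.48, adjusted p = 0.0158), whereas Tgfbr3 (0.56, adjusted p = 0.0773), Acvr2b (0.44, adjusted p = 0.249) and Acvr2a (0.26, adjusted p = 0.215) did not.

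Of 3 tested Smad effectors, Smad4, the partner shared by BMP and TGF-beta Smads, fell by 0.44 (SE 0.072, adjusted p = 0.00330). Its signals were 12.46, 12.18 and 12.20 under the Rhau KO label, against 12.76, 12.72 and 12.66 under the wildtype label, and its other probe sets differed by -0.42 and -0.40, both called. The call of the brightest was lost with the Y-linked term (-0.35, adjusted p = 0.161), in the 3 arrays that carry both sex-linked signals (-0.34, adjusted p = 0.158) and with eBayes without trend (adjusted p = 0.0522). Smad1 (-0.03) and Smad5 (0.23) were not called. Neither of the other ligand genes above the filter was called, Bmp6 at -0.19 and Gdf2, which encodes BMP9, at 0.20, and 4 more ligand genes with a probe set lay below it.

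Of 10 tested secreted antagonists and modulators, 1 fell, 1 rose and 8 had no call (median -0.01). Sost encodes sclerostin, a protein of the antagonist family that is better known as a Wnt inhibitor, and it fell 2.24-fold (SE 0.21 on the log2 scale, adjusted p = 0.00481). Its signals were 7.91, 7.06 and 7.25 under the Rhau KO label and 8.35, 8.75 and 8.61 under the wildtype label. Twsg1, whose product binds BMPs together with chordin, rose by 0.36 (SE 0.10, adjusted p = 0.0410). That call held in 1 of 6 fits that left out an array, without replicate 2 labelled Rhau KO (0.47), and the differences of the others ran from 0.24 without replicate 3 labelled Rhau KO to 0.41 without replicate 2 labelled wildtype. With the Y-linked term Sost stood at -1.19 (adjusted p = 0.115) and Twsg1 at 0.45 (adjusted p = 0.206), and in the 3 arrays that carry both sex-linked signals Sost stood at -1.13 (adjusted p = 0.0684). The remaining 9 genes with a probe set lay below the filter, among them the antagonist genes Nog (2.26 against 2.86) and Grem1 (5.39 against 6.04).

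Intracellular inhibitors gave 3 lower and 1 higher of 10 tested, with a median of -0.07. Over all genes represented by their brightest probe set, 9.75% were called lower and 6.77% higher. Ppm1a, a phosphatase reported to act on activated Smads, fell 2.06-fold on its brightest probe set, at 11.01, 11.05 and 11.06 under the Rhau KO label and 12.12, 12.06 and 12.06 under the wildtype label (adjusted p = 2.51e-06). The differences of 6 further tested Ppm1a probe sets ran from -0.75 to -0.05, and 2 of them were called, both lower. Smurf2, a ubiquitin ligase that marks receptors and Smads for degradation, fell by 0.34 (SE 0.066, adjusted p = 0.00692), and Bambi, a pseudoreceptor, by 0.24 (SE 0.061, adjusted p = 0.0253). Tob2 rose by 0.26 (SE 0.077, adjusted p = 0.0458) on its brightest probe set, and its other tested probe sets differed by 0.46 (called), 0.31, 0.20 and -0.23 (without a call). The Bambi call was lost without replicate 1 labelled Rhau KO (-0.20), replicate 1 labelled wildtype (-0.25) or replicate 2 labelled wildtype (-0.20), and the Tob2 call in all 6 fits that left out an array (0.22 to 0.30). The Smurf2 call was lost with the Y-linked term (-0.26, adjusted p = 0.226), in the 3 arrays that carry both sex-linked signals (-0.30, adjusted p = 0.204), without them (-0.35, adjusted p = 0.0598) and with eBayes without trend (adjusted p = 0.0527). With the Y-linked term Ppm1a kept its call (-1.02, adjusted p = 0.00159), whereas Bambi (-0.17, adjusted p = 0.423) and Tob2 (0.25, adjusted p = 0.348) did not. Smad7, the other inhibitory Smad gene, was at -0.06 (adjusted p = 0.783).

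Of 10 tested transcription factor genes that respond to BMP, 1 fell and 9 had no call, with a median of -0.10. Tbx3, a transcriptional repressor made in the atrioventricular canal and conduction system, fell by 0.46 (SE 0.11, adjusted p = 0.0225). Its signals were 8.63, 8.53 and 8.61 under the Rhau KO label and 8.86, 9.25 and 9.03 under the wildtype label. A second tested Tbx3 probe set stood at -0.30 and was not called. The call was lost without replicate 2 labelled Rhau KO (-0.43), replicate 2 labelled wildtype (-0.35) or replicate 3 labelled wildtype (-0.46), and with the Y-linked term (-0.47, adjusted p = 0.221). Id3 and Id4, the other members of the Id family, were at -0.13 (adjusted p = 0.0905) and -0.01 (adjusted p = 0.976). Among 9 tested genes linked to Bmp10 in trabeculae, 3 fell and 2 rose (median 0.03). Hey2, a transcriptional repressor made in the compact wall, and Nkx2-5, a homeobox factor upstream of many heart genes, fell 2.49-fold and 2.44-fold. Myocd, a coactivator of muscle genes, rose by 0.76 (SE 0.14, adjusted p = 0.00500), and its other tested probe set differed by 0.20 without a call. Cdkn1c, a cell cycle inhibitor that rises when Bmp10 is lost in mice, was at 13.82, 13.60 and 13.72 under the Rhau KO label and 13.29, 13.20 and 13.17 under the wildtype label, 1.41-fold higher with adjusted p = 6.86e-04. With the Y-linked term Hey2 (-1.31, adjusted p = 0.00307), Nkx2-5 (-1.21, adjusted p = 0.00128) and Cdkn1c (0.57, adjusted p = 0.0218) kept their calls, and Myocd (0.86, adjusted p = 0.0850) did not.

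**Figure D4:**
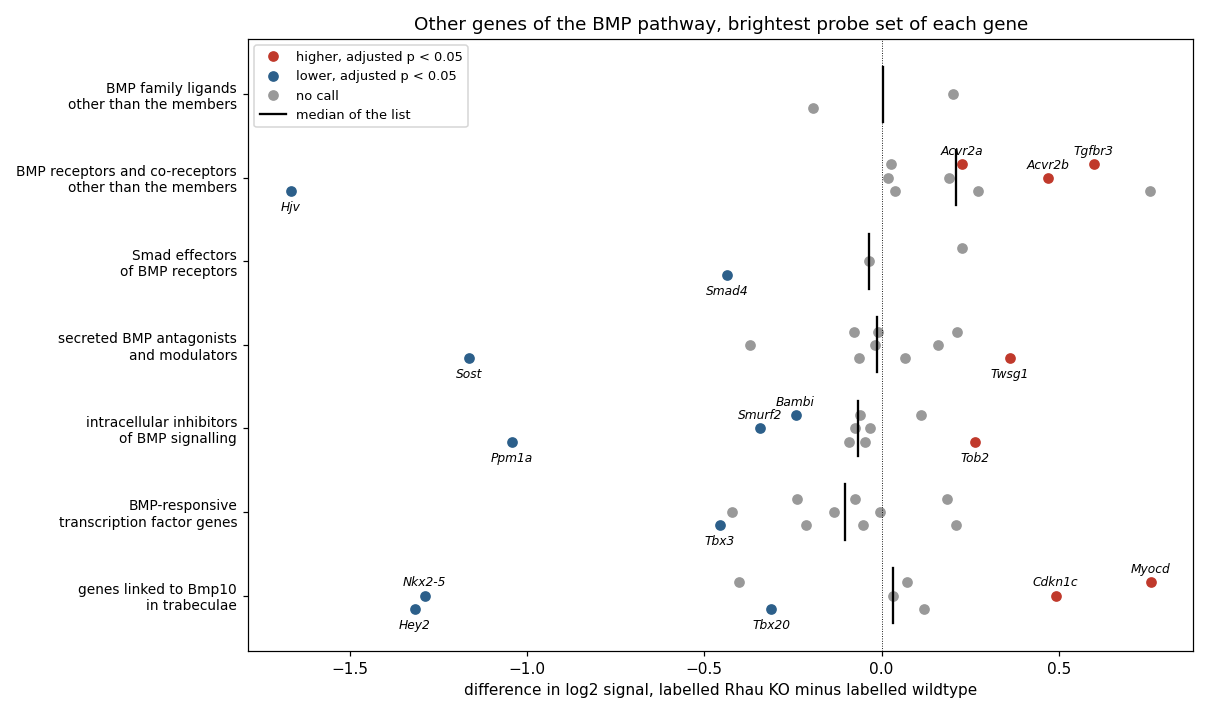
Difference in log2 signal (x axis, labelled Rhau KO minus labelled wildtype) of each tested pathway gene, by list (rows), with called genes in colour and named and a black bar at each list's median. Called genes lie on both sides of 0 in 4 of the 7 lists, and list medians run from -0.10 to 0.21.

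Summed linear signal of marker genes did not overlap between the labels for 9 of 12 lists. It did not overlap for 4 of 12 once the gene with the largest linear change was left out of each list, a step chosen after the data were seen. Groups did not overlap for 33.9% of all single probe sets tested, although a sum over genes is another measure. Over all genes represented by their brightest probe set, 6.77% were called higher and 9.75% lower. Summed linear signal of 5 atrioventricular canal markers was 1784 to 2040 in the arrays labelled Rhau KO and 1302 to 1711 in the arrays labelled wildtype, with 2 markers higher (Rspo3 and Cacna1g) and 1 lower (Tbx3). Without Rspo3, which was 2.67-fold higher, it was 1043 to 1187 against 1068 to 1323. That of 11 endothelial and endocardial markers was 14811 to 16166 against 12859 to 13953, with 5 higher and 0 lower, and it stayed apart without Npr3. Outflow tract markers summed to 9736 to 9883 against 8755 to 9275 (2 higher and 1 lower of 5 tested) and overlapped without Sema3c, at 8333 to 8472 against 7898 to 8573, and cushion mesenchyme markers overlapped at 28420 to 30633 against 30353 to 31532. Among myocardial lists, 10 cardiomyocyte markers summed to 210312 to 240799 against 242165 to 252569 (0 higher, 4 lower), and overlapped without Myh6. The 3 compact wall markers summed to 12470 to 13717 against 16664 to 17009, with Hey2 and Tbx20 lower and Mycn higher by 0.77 (adjusted p = 0.00114). The 6 trabecular markers overlapped, at 41973 to 51449 against 43397 to 48434, with 2 higher and 0 lower. Epicardial markers were at 10015 to 10514 against 10640 to 12031 with 0 of 7 called. Of the lists for other cell types, 9 erythroid markers summed to 71240 to 89204 against 93309 to 99588 (6 lower), which overlapped without Hbb-bh1. The 7 macrophage markers summed to 3318 to 4074 against 2367 to 2475 (2 higher, Lyz2 by 7.90-fold), and without Lyz2 to 2199 to 2726 against 2202 to 2317. Signal was 4379 to 4665 against 2668 to 2926 for 4 neural crest and neuronal markers (3 higher). Without Ednrb it was 874 to 912 against 678 to 733, and Sox10 had no call (0.04, adjusted p = 0.936). Liver, lung and gut markers were dim, at 379 to 494 against 454 to 554. No marker with a probe set was at 0 on all arrays. The part of these shifts in the changes of Bmp2, Bmp4, Bmp7, Bmpr1a, Smad6 and Id2 was not tested.

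**Figure D5:**
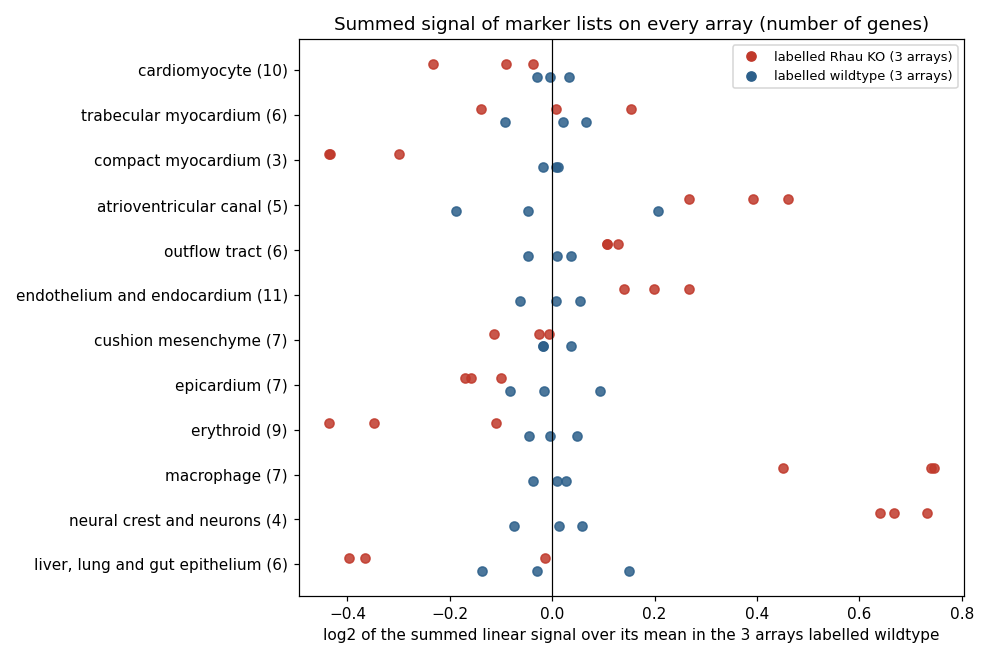
Log2 of the summed linear signal of each marker list (rows, with the number of genes) on every array, relative to the mean of the 3 arrays labelled wildtype; red, labelled Rhau KO, above blue, labelled wildtype. The red points of the macrophage and neural crest lists lie right of all blue points, and those of the erythroid and compact wall lists left of them; without Lyz2 the macrophage sums, and without Hbb-bh1 the erythroid sums, overlap.

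The genes whose signal most resembled that of a member were found by Pearson correlation over the 6 arrays, among the brightest probe sets of 12415 other genes, for the 3 members with the largest called change on their brightest probe set. Closest to Bmp4 were Gskip, Rgs6 and Trabd2b (r = 0.999, 0.999 and 0.998), which differed by -0.29, -1.30 and -1.22. Closest to Bmp2 were Bcap29, Fcf1 and Rbak (r = 0.998, 0.997 and 0.997), at 0.22, 0.21 and 0.31 without a call. Closest to Smad6 were Tnnt3, the fast skeletal troponin T gene, Mllt10 and Arf6 (r = 0.9998, 0.998 and 0.998), at -3.89, -0.34 and -0.63. With 6 points in 2 groups these values are a description only. At the looser cut of 0.95, r was exceeded by 367, 113 and 528 genes with Bmp4, Bmp2 and Smad6 (2.96%, 0.91% and 4.25%). Once each group's mean was subtracted the closest genes were others, Kcnn4, Rabgef1 and Gm15545 for Bmp4, Ndufa10, Ppan and Naa35 for Bmp2, and Sh3bgrl3, Myo18a and Edem1 for Smad6.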

How the data were processed

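Each sample's RNA was hybridised to 1 array. The authors deposited log2 signals, made with MAS5 per the submitters' processing notes (version and genome build not given in the sources used here). Values ran from 0 to 15.21 and were used as deposited, with no pseudocount. Detection calls were not used here, so dim signals are not told apart from background. Of 45101 probe sets, 64 controls were left out. Of the rest, 34945 name 1 gene, 932 several and 9160 none, by the platform annotation with symbols updated through Entrez identifiers.

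Probe sets in the lowest 40% of mean signal (log2 below 5.90) were left out. The test on all others, named or not, was that of limma 3.58.1 (lmFit, eBayes with trend; R 4.3.3) over all 6 arrays, two-sided, called at 0.05 after Benjamini-Hochberg correction. All adjusted p for genes are limma's. Within-array contrasts used an exact permutation test (scipy 1.17.1). In pathway and marker lists a gene was represented by its brightest single-gene probe set. Some genes stand in several lists. The text names every member and, per pathway list, up to 4 called genes of largest change or otherwise up to 2 as values; other genes were named after their values were seen. Members and lists were chosen with earlier results of these data known. The fit was tested on simulated arrays. The 19 alternatives are named in the closing section. Arrays of one label are separate samples. Some arrays carried both Xist and Y-linked signal, and whether each is 1 embryo is unsettled, so p-values measure the spread between arrays. Y-linked signal was the mean log2 of Eif2s3y, Kdm5d and Uty; Ddx3y is named by no single-gene probe set. Plots were drawn with matplotlib 3.10.9, and tables handled with Python 3.11.15 and pandas 2.3.3.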

Additional observations from a re-analysis of the deposited data

How the results depend on the processing

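All 9 called member probe sets kept their direction under the 19 alternatives, where each was tested, and 1 of them, Bmp4, kept its call in all. Of the 16 called pathway genes that are named, all kept their direction and 5 their call in all 19. Member probe sets called higher (2 as reported) numbered 1 with 1 probe set per gene, 1 with no filter, 1 in the 3 arrays that carry both sex-linked signals, 1 with Y-linked signal as a covariate, 0 with eBayes without trend, 0 after median centring, 0 without those 3 arrays, and 0 to 2 when an array was left out. Those called lower (7 as reported) numbered 3 with 1 probe set per gene, 3 in the 3 arrays with both signals, 1 with the covariate, and 5 to 7 when an array was left out. Over the table, calls numbered 1018 higher with 1 probe set per gene, 1007 after median centring, 886 higher and 903 lower with eBayes without trend, 501 and 515 in the 3 arrays with both signals, 579 and 980 without them, 331 and 398 with the covariate, and 1046 to 1283 higher and 1139 to 1574 lower when an array was left out, against 1824 and 1858. The fits on 3 arrays leave 1 array in a group, whose spread is taken to equal that of the other group, and the covariate takes a degree of freedom and is itself confounded with the labels. The cause of the other shifts was not tested.

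Probe sets without a call changed sign as follows. After median centring Bmpr2 1434310_at stood at -0.038. With the covariate Id1 stood at 0.056. In the 3 arrays with both signals Bmp5 1421283_at stood at 0.19 and Id1 at 0.067. Without those arrays Bmp5 1421282_at stood at -0.033, Bmpr2 1434310_at at -0.060 and Id2 1453596_at at 0.11. Leaving out an array gave ranges of -0.22 to 0.24 for Bmp5 1421283_at, -0.039 to 0.37 for Bmp5 1421282_at, -0.12 to 0.027 for Bmp7 1435479_at, -0.044 to 0.073 for Bmpr2 1434310_at and -0.10 to 0.038 for Id2 1453596_at. With the replicate number as a block, for which deviations of same-numbered arrays correlated at -0.00028, 0.042 and 0.0055 and so gave no pairing, the table had 1684 probe sets called higher and 1760 lower and the members 3 and 7. Pseudocounts of 1 and 64, quantile normalization, leaving out the lowest 60% and array weights left all 4 counts within 1.5 times those reported. Groups of 3 allow no test for single outlying arrays, and dim probe sets such as those of Bmp10 have wide intervals.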
